A study of Rattus norvegicus with 20 samples.

Results

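The genes described here serve protein folding, endoplasmic reticulum associated degradation (ERAD) and the stress response of the endoplasmic reticulum (ER). They were followed in rat liver across 4 dose groups of the flame retardant congener PBDE-47, a brominated diphenyl ether. The list names 34 genes. Each was represented by the brightest probe set, over all 20 arrays, that is annotated to that gene alone. By this rule 33 of the 34 were measured, among 14217 genes with such a probe set on the array. Ern1, which encodes the stress sensor IRE1, had none and was not analysed here. The choice of probe set used overall brightness and no dose effect, whereas the genes were listed with earlier results of these data known.

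The measured members fall into 5 roles. Folding in the ER lumen has 14 members (Hspa5, Hsp90b1, Calr, Canx, Pdia3, Pdia4, Pdia6, P4hb, Hyou1, Dnajc3, Dnajb9, Sdf2l1, Manf and Creld2). ERAD has 9 (Sel1l, Syvn1, Derl1, Derl2, Vcp, Selenok, Herpud1, Edem1 and Ube2j1). The translocon, the channel through which new proteins enter the ER, has 3 (Sec61a1, Sec63 and Ssr1). The stress sensors and transcription factors have 5 measured members (Eif2ak3, Atf6, Xbp1, Atf4 and Ddit3), and the targets of ATF4 have 2 (Trib3 and Asns).

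Timed-mated Wistar Han (Crl:WI (Han)) dams, 11 to 12 weeks old when obtained at gestation day 2, received PBDE-47 in corn oil by gavage, or corn oil alone, from gestation day 6 to postnatal day 4. Each dose group (vehicle, 0.1 mg/kg, 15 mg/kg and 50 mg/kg) has 5 arrays, all labelled female. The dosing volume of 5 mL/kg per day carried formulations of 0, 0.02, 3 or 10 mg/mL, so that every group, the vehicle group included, received corn oil. RNA came from the left lateral lobe of the liver at postnatal day 4, and 100 ng was amplified for the Rat230_2 array. The labels do not say whether a liver was a dam's or a pup's, nor which animals shared a litter. All p-values thus reflect only how these samples vary, which may be technical.

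Proteins that enter the secretory pathway fold in the ER with the help of chaperones of the HSP70 and HSP90 families, lectins and disulphide isomerases. Those that fail to fold are pulled back to the cytosol through membrane ubiquitin ligase complexes, extracted by the ATPase p97 and degraded by the proteasome. A load of unfolded protein activates the sensors IRE1, ATF6 and PERK, which act through spliced XBP1, cleaved ATF6 and ATF4 to raise chaperones, ERAD components and amino acid synthesis. Hepatocytes secrete most plasma proteins, and inducers of cytochrome P450 enzymes are known to expand the smooth ER of these cells.

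Some of these genes carry a promoter element read by ATF6 and XBP1, which is shown here because it is the best known regulatory sequence of ER chaperone genes. The ER stress response element, CCAAT followed after 9 bases by CCACG on either strand, was present in 7 of the 27 measured members with a promoter in the RefSeq table for GRCr8 (250 bases before to 50 after the gene start). That is 25.9% of those members, against 0.0657% of all 33469 promoters of that length. None of the 3 members that passed a test below carried it. The 7 were Calr, Canx, Creld2, Dnajc3, Hsp90b1, Hspa5 and Xbp1. The compact form, ATTGG followed after 1 base by CCACG, was found in Herpud1 and Hyou1 (0.0508% of all promoters). The unfolded protein response element TGACGTGG, which overlaps the CCACG motif on the opposite strand, was found in Hyou1, Ube2j1 and Vcp (0.595% of all promoters). The amino acid response composite TGATGNAAN was found in Herpud1 and Trib3 (3.97% of all promoters). Alone, CCACG occurred in 24 of the 27 members and in 31.6% of all promoters, and CCAAT in 21 of the 27 and in 37.5%. Members were counted as genes with a match in any listed promoter, whereas the shares over all promoters count single promoters. Atf6, Derl1, Manf, Pdia3, Pdia6 and Sec61a1 were not in the promoter table. A match describes the letters only. In the sequences below, 5′ to 3′ on the strand of the gene, capitals mark the motif or, in Selenok and Syvn1, single CCAAT and CCACG motifs on either strand. The first 4 carry the ER stress response element, the next 2 its compact form, and the last 3 belong to the members that passed a test below.
Hspa5, chr3:38452963-38453001, + strand: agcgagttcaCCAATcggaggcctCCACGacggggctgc
Calr, chr19:40213125-40213163, + strand: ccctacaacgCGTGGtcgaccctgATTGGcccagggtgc
Creld2, chr7:121789229-121789267, + strand: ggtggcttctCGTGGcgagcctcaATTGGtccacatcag
Xbp1, chr14:84604548-84604586, + strand: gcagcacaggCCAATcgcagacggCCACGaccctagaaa
Hyou1, chr8:53602784-53602814, + strand: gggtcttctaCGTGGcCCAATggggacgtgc
Herpud1, chr19:10614811-10614841, - strand: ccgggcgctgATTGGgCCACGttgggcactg
Vcp, chr5:62025593-62025620, - strand: tacggccaatTGACGTGGcgttactagg
Selenok, chr16:5158471-5158570, + strand: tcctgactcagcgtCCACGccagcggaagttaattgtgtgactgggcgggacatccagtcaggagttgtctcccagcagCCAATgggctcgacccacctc
Syvn1, chr1:212768748-212768847, + strand: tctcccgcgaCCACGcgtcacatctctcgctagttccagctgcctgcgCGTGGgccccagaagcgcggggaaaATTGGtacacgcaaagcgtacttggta

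Cyp1a1 and Cyp2c7, cytochrome P450 genes used to check the dose labels, were higher at 15 and 50 mg/kg than in any vehicle array. Cyp1a1 differed from vehicle by 3.46 ± 0.22 log2 units (SE) at 50 mg/kg, 2.50 at 15 mg/kg and -0.09 at 0.1 mg/kg. The hepatocyte markers Alb, Apoa1, Ttr, Serpina1, Hnf4a, Fgb and Apob lay between 11.44 and 14.82 on every array. Transcripts of skeletal muscle or exocrine pancreas were raised on 1 vehicle array, 4 arrays at 0.1 mg/kg, 2 at 15 mg/kg and 3 at 50 mg/kg (a list mean more than 2 log2 units above the lowest array). Of the plasma and B cell list Jchain (3.75 to 4.87) and Mzb1 (4.26 to 4.85) stayed low, while Cd79b reached 5.72 and Pou2af1 6.18. Of the exocrine pancreas list Pdia2, a disulphide isomerase, (2.97 to 3.92) and Pnlip (3.78 to 4.25) stayed low. Cela1 was high on every array (10.10 to 11.06). Each other measured gene of that list reached 6.51 or more on some array, with Ctrb1 up to 9.31. Vehicle replicate 4 stood apart from the other arrays. It was the highest of all 20 arrays for 12 of the 33 members, and its mean over the folding genes was 11.29, where the other vehicle arrays had 10.90 to 10.97. For many members the change is given below without this array too. In whole liver, fewer cells of a type and less RNA per cell cannot be told apart.

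Of the 33 members 2 fell at 50 mg/kg and none rose, both of them in ERAD: Selenok and Syvn1. Over all 31042 probe sets 0.934% were called at this dose, 0.586% higher and 0.348% lower (limma, Benjamini-Hochberg adjusted p under 0.05 over all probe sets). The members were chosen with earlier results of these data known, so setting them against these shares is not a test of the list. At 15 mg/kg Selenok alone was called, as lower, against 0.116% of all probe sets (0.0226% lower, 0.0934% higher). At 0.1 mg/kg no member and no other probe set was called (0%), although 8 members had an unadjusted p under 0.05, against 6.87% of all probe sets. The upper doses did not separate: no member was called at 50 against 15 mg/kg, where 0% of all probe sets were called and 1 member, Ssr1, had an unadjusted p under 0.05 (5.63% of all probe sets). Over the order of the doses Selenok and Syvn1 fell and Vcp rose, against 1.45% of all probe sets called (0.96% higher, 0.486% lower).

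**Figure D1:**
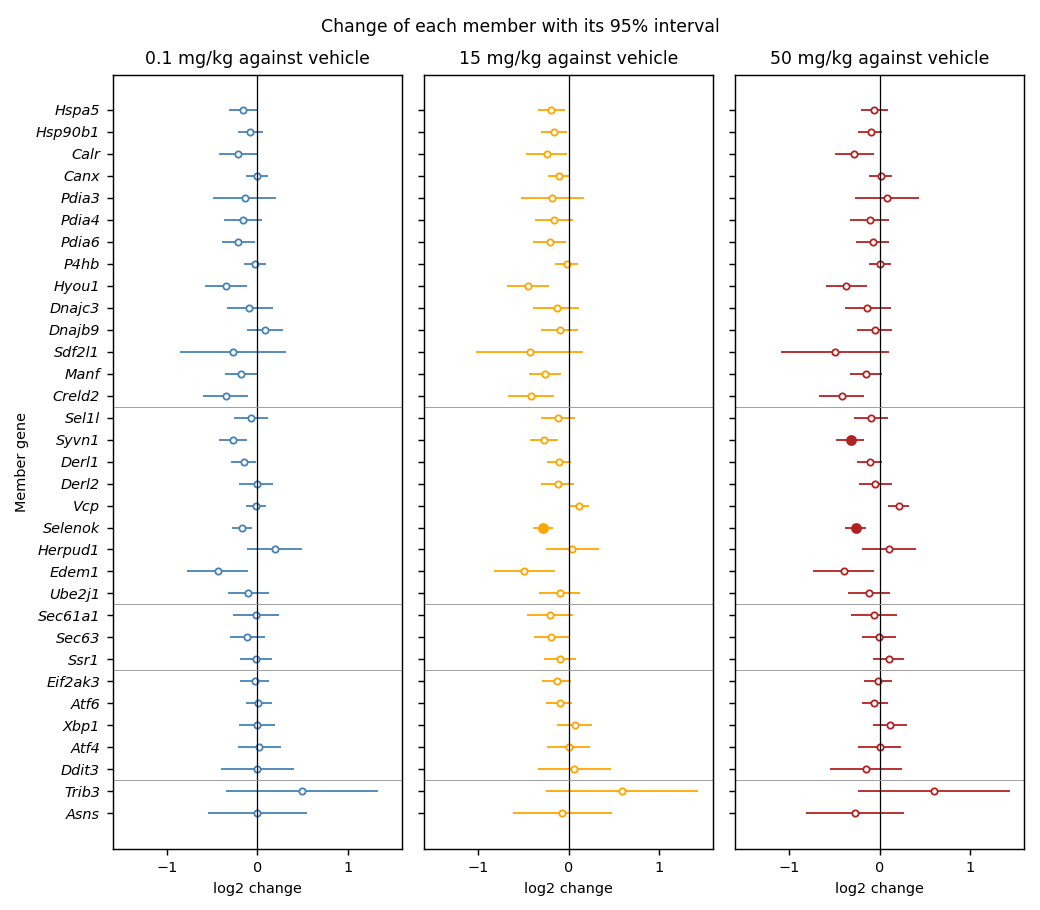
Change of each of the 33 members against vehicle on the log2 scale at 0.1, 15 and 50 mg/kg, with its 95% interval from the limma fit (n = 5 arrays a group); grey lines separate folding, ERAD, translocon, sensors with factors, and ATF4 targets from top to bottom. Filled points passed the adjusted p threshold: Selenok at 15 and 50 mg/kg and Syvn1 at 50 mg/kg; the widest intervals belong to Trib3, Sdf2l1 and Asns.

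Selenok encodes selenoprotein K, an ER membrane protein that binds the derlins and p97. On the vehicle arrays (replicates 1 to 5) its log2 values were 10.63, 10.45, 10.50, 10.61 and 10.50. They were 10.39, 10.33, 10.33, 10.42 and 10.37 at 0.1 mg/kg, and 10.17, 10.30, 10.29, 10.31 and 10.22 at 15 mg/kg. With 50 mg/kg the values were 10.30, 10.33, 10.17, 10.26 and 10.32. Each dosed array was below each vehicle array, at all 3 doses. The change was -0.26 ± 0.05 (SE) at 50 mg/kg (adjusted p = 0.021), -0.28 ± 0.05 at 15 mg/kg (adjusted p = 0.0362) and -0.17 ± 0.05 at 0.1 mg/kg (adjusted p = 0.523, not called). The 3 comparisons share the vehicle arrays. Between 50 and 15 mg/kg the difference was 0.02, with a 95% interval from -0.09 to 0.13. Selenok had the smallest residual SD of all members, 0.06, and a slope of -0.09 per dose step (adjusted p = 0.00837).

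The size of the Selenok change hardly depended on the processing, from -0.28 to -0.24 at 50 mg/kg over 32 alternatives, whereas its call did. At 50 mg/kg the adjusted p ran from 0.0116 to 0.634, and 4 single-array omissions ended the call. These were vehicle replicates 1 (0.051) and 4 (0.0631), and the 50 mg/kg replicates 3 (0.058) and 4 (0.0639). At 15 mg/kg the call was kept only when the array left out was vehicle replicate 2, replicates 2 or 5 at 0.1 mg/kg, or replicates 2 or 3 at 50 mg/kg. Each of the other 15 omissions gave an adjusted p between 0.0501 and 0.118.

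Syvn1 encodes HRD1, the ubiquitin ligase at the centre of the ERAD complex. Its vehicle values were 9.0, 9.11, 9.10, 9.29 and 9.24. They were 8.78, 9.01, 8.81, 8.98 and 8.80 at 0.1 mg/kg, and 8.85, 8.84, 8.82, 8.85 and 9.0 at 15 mg/kg. In the highest dose group they were 8.71, 8.94, 8.73, 8.75 and 8.98, all below the lowest vehicle array. At the lower doses single arrays reached the lowest vehicle value. The change was -0.32 ± 0.07 (SE) at 50 mg/kg (adjusted p = 0.0412). It was -0.27 ± 0.07 both at 15 mg/kg (adjusted p = 0.171) and at 0.1 mg/kg (adjusted p = 0.437), neither called. The slope was -0.10 per dose step (adjusted p = 0.0395), a call that 11 of the 20 omissions ended: vehicle replicates 2 to 5, replicate 4 at 0.1 mg/kg, replicates 1, 3 and 4 at 15 mg/kg, and the 50 mg/kg replicates 1, 3 and 4. The adjusted p of the change at 50 mg/kg ran from 0.0223 to 0.715 over the 32 alternatives, and leaving out a single array ended the call in 9 of 20 cases. These were vehicle replicates 2 (0.0652), 3 (0.0628), 4 (0.117) and 5 (0.0828), replicate 3 at 0.1 mg/kg (0.0513), replicate 1 at 15 mg/kg (0.0543), and replicates 1 (0.0943), 3 (0.0982) and 4 (0.118) at 50 mg/kg.

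Vcp encodes p97, the ATPase that extracts substrates from the ER membrane, and was the only member called as higher, in the slope alone. Its vehicle values were 11.06, 11.07, 11.07, 11.16 and 11.17. They were 11.14, 11.12, 11.09, 11.13 and 10.96 at 0.1 mg/kg, and 11.20, 11.15, 11.19, 11.28 and 11.28 at 15 mg/kg. The 50 mg/kg arrays had 11.34, 11.18, 11.35, 11.34 and 11.38, all above the highest vehicle array. The difference from vehicle was 0.21 ± 0.06 (SE) at 50 mg/kg (adjusted p = 0.0838), 0.11 at 15 mg/kg (adjusted p = 0.42) and -0.02 at 0.1 mg/kg (adjusted p = 0.975). No single dose was called, and the slope of 0.08 per dose step was (adjusted p = 0.0314). This slope lost its call when any of vehicle replicates 1 to 3, or any 50 mg/kg array other than replicate 2, was left out. It was also lost with the replicate block, with the muscle, pancreas and erythroid covariates, with the beta-actin covariate and without the arrays carrying muscle or pancreas transcripts. Without replicate 2 at 50 mg/kg, which was the lowest of its group, the change at that dose was called, at 0.24 (adjusted p = 0.0417, in a range from 0.0393 to 0.742 over the alternatives).

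**Figure D2:**
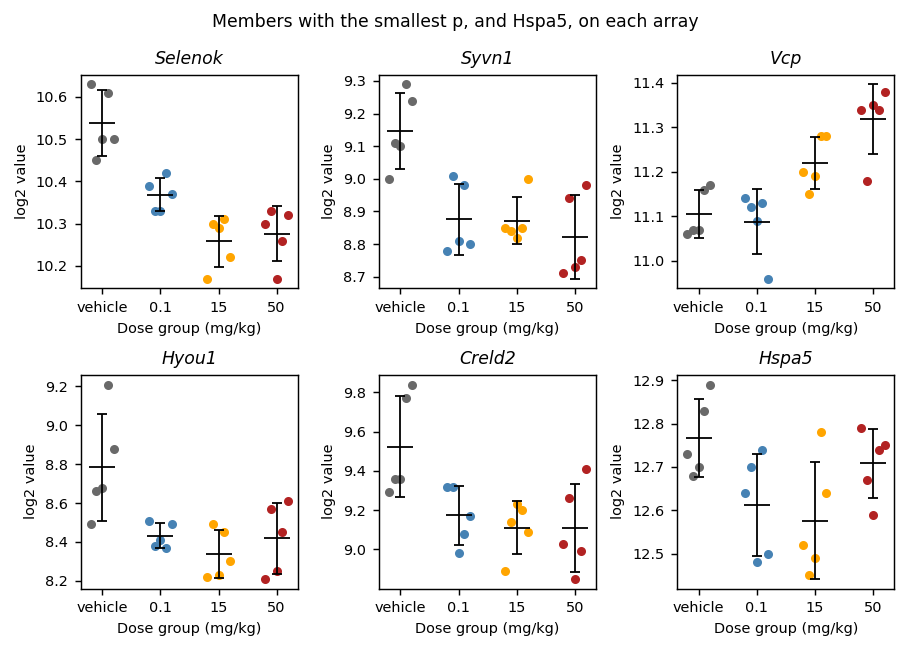
Deposited log2 values of Selenok, Syvn1, Vcp, Hyou1, Creld2 and Hspa5 on each array (points) by dose group in mg/kg, with the group mean and SD (bars; n = 5). All 15 dosed arrays lie below the vehicle arrays for Selenok, and the 5 arrays at 50 mg/kg lie above them for Vcp; for Hyou1 the highest point is vehicle replicate 4, at 9.21.

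The array descriptions carry a number whose leading digit (1 to 4) is spread over all dose groups and whose meaning the labels do not give. Within each of the 4 digits Selenok and Syvn1 were lower than vehicle at every dose, with differences from -0.46 to -0.13 for Selenok and from -0.54 to -0.11 for Syvn1. Vcp was higher at 50 mg/kg within each digit, by 0.18 to 0.27. For Selenok at every dose, and for Syvn1 and Vcp at 50 mg/kg, the groups did not overlap. The sign within a digit was thus fixed in advance there and adds no support. Digits 1, 3 and 4 hold 1 vehicle array each and digit 2 holds 2, so the sizes rest on very few arrays. With the digit as a block Syvn1 at 50 mg/kg had an adjusted p of 0.05, just past the threshold, and Selenok at 15 mg/kg of 0.0645.

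The other ERAD members did not pass the test at any dose. They include the adaptor Sel1l, the channel proteins Derl1 and Derl2, the ubiquitin conjugating enzyme Ube2j1, Herpud1 and the mannosidase-like lectin Edem1. Edem1 had the lowest change of all members at 15 mg/kg, -0.49 (adjusted p = 0.249), and -0.40 at 50 mg/kg (adjusted p = 0.288). Its vehicle values were 12.09, 10.98, 11.20, 10.90 and 11.06, so that replicate 1 alone set the width of the group. The values at 50 mg/kg, 11.05, 10.71, 10.62, 10.93 and 10.91, overlapped the other 4 vehicle arrays. A second Edem1 probe set changed by -0.42 at 50 mg/kg (adjusted p = 0.298), and another by 0.22 (adjusted p = 0.576), so that the probe sets of this gene disagreed in sign. Herpud1 averaged 11.44 ± 0.33 (SD, n = 5) in vehicle and 11.54 at 50 mg/kg, a change of 0.10 (adjusted p = 0.833). Derl1 changed by -0.11 at 50 mg/kg (adjusted p = 0.466) and Sel1l by -0.10 (adjusted p = 0.691). The changes at 50 mg/kg without vehicle replicate 4 were 0.06 for Herpud1, -0.07 for Derl1 and -0.03 for Sel1l. Over the 9 ERAD members the median change was -0.11 at 50 mg/kg, -0.12 at 15 mg/kg and -0.10 at 0.1 mg/kg, where the median over all probe sets was 0.009, 0.013 and 0.008. The ERAD medians without vehicle replicate 4 were -0.07, -0.11 and -0.10.

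None of the 14 folding genes passed the test at any dose. Their values were nonetheless mostly below vehicle: 14 of 14 had a negative change at 15 mg/kg, 11 at 50 mg/kg and 13 at 0.1 mg/kg. Over all probe sets 53% of the changes were positive at 50 mg/kg, 54.1% at 15 mg/kg and 53.2% at 0.1 mg/kg. The median over the folding genes was -0.11, -0.19 and -0.16 at 50, 15 and 0.1 mg/kg. Without vehicle replicate 4 it was -0.07, -0.13 and -0.07, and the counts of negative changes were 11, 13 and 10 of 14. The same vehicle arrays stand in all 3 comparisons, so the shared sign is not evidence from separate samples.

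Creld2, an ER stress inducible protein that holds disulphide isomerase activity, had vehicle values of 9.29, 9.36, 9.36, 9.77 and 9.84. They were 9.32, 9.32, 8.98, 9.08 and 9.17 at 0.1 mg/kg, and 8.89, 9.14, 9.23, 9.20 and 9.09 at 15 mg/kg. With 50 mg/kg the values were 9.03, 9.26, 8.85, 8.99 and 9.41. Vehicle replicates 4 and 5 were the high arrays, and at 15 mg/kg no array reached the vehicle group. The change was -0.42 ± 0.12 (SE) at 50 mg/kg (adjusted p = 0.114). It was -0.42 at 15 mg/kg (adjusted p = 0.203) and -0.35 at 0.1 mg/kg (adjusted p = 0.587), and none was called. Leaving out vehicle replicate 4 gave -0.35 at 50 mg/kg, -0.35 at 15 mg/kg and -0.29 at 0.1 mg/kg.

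Hyou1 encodes GRP170, the nucleotide exchange factor of BiP. Its vehicle values were 8.49, 8.66, 8.68, 9.21 and 8.88. They were 8.51, 8.38, 8.41, 8.37 and 8.49 at 0.1 mg/kg, and 8.22, 8.49, 8.23, 8.45 and 8.30 at 15 mg/kg. In the highest dose group they were 8.21, 8.57, 8.25, 8.45 and 8.61. Every dosed group overlapped vehicle through vehicle replicate 1. The change was -0.37 ± 0.11 (SE) at 50 mg/kg (adjusted p = 0.13), -0.45 at 15 mg/kg (adjusted p = 0.121) and -0.35 at 0.1 mg/kg (adjusted p = 0.523). Leaving out vehicle replicate 4, its highest array, gave smaller changes: -0.26 at 50 mg/kg (adjusted p = 0.266), -0.34 at 15 mg/kg and -0.25 at 0.1 mg/kg. With all arrays the slope of Hyou1 was not called (adjusted p = 0.0968). It was called as lower only when vehicle replicate 1 was left out.

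Hspa5 encodes BiP, the HSP70 chaperone of the ER lumen whose induction is the usual sign of ER stress. Its vehicle values were 12.73, 12.68, 12.70, 12.83 and 12.89. They were 12.64, 12.70, 12.48, 12.74 and 12.50 at 0.1 mg/kg, and 12.52, 12.45, 12.49, 12.78 and 12.64 at 15 mg/kg. The 50 mg/kg arrays had 12.79, 12.67, 12.59, 12.74 and 12.75, within the spread of the vehicle arrays apart from replicates 2 and 3. The change was -0.06 at 50 mg/kg with a 95% interval from -0.21 to 0.09 (adjusted p = 0.809). Leaving out vehicle replicate 4 gave -0.04. With all arrays the change was -0.19 at 15 mg/kg (adjusted p = 0.314) and -0.16 at 0.1 mg/kg (adjusted p = 0.72). The upper limit of 0.09 log2 units for Hspa5 at 50 mg/kg holds for the fit with all arrays. No interval is given without vehicle replicate 4.

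Calr, the lectin chaperone calreticulin, changed by -0.28 at 50 mg/kg (adjusted p = 0.255) and by -0.15 without vehicle replicate 4, whose value of 12.01 stood above 11.29 to 11.47 on the other vehicle arrays. Sdf2l1, a partner of the BiP cycle, changed by -0.50 at 50 mg/kg (adjusted p = 0.487) and by -0.20 without that array, which had 10.00 where the others had 8.17 to 8.97. Manf, a secreted ER stress protein, changed by -0.26 at 15 mg/kg (adjusted p = 0.251), and Pdia6, a disulphide isomerase, by -0.21 (adjusted p = 0.343; -0.14 without vehicle replicate 4). The lectin Canx and the disulphide isomerase P4hb varied least among the folding genes, with residual SDs of 0.08. Canx changed by 0.01 at 50 mg/kg, with a 95% interval from -0.12 to 0.14. P4hb changed by 0.00, with an interval from -0.12 to 0.12. A second Canx probe set changed by -0.17 at 50 mg/kg (adjusted p = 0.372) and another by -0.13 (adjusted p = 0.78). The value near 0 thus holds for the brightest Canx probe set only.

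**Figure D3:**
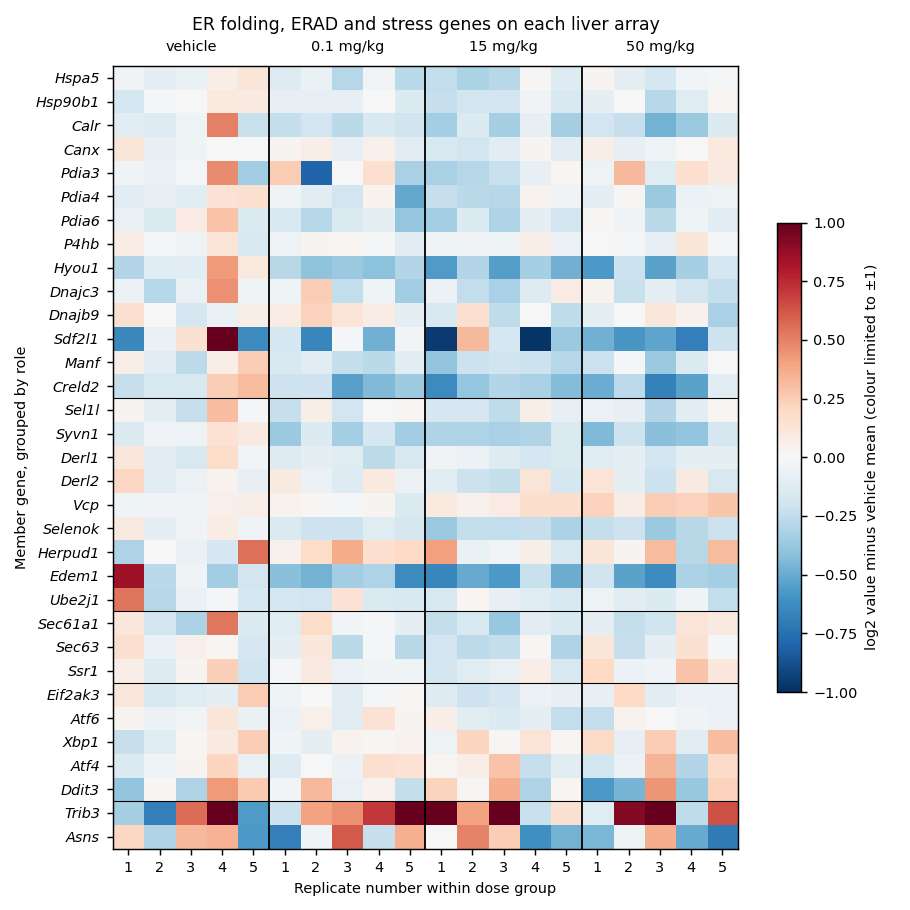
Log2 value of each of the 33 members on each of the 20 arrays minus the mean of the 5 vehicle arrays of that member; columns are replicates within dose group, rows are members grouped by role in the order folding, ERAD, translocon, sensors with factors, ATF4 targets, and colours are limited to 1 log2 unit either way. Vehicle replicate 4 is the highest of the 20 arrays for 12 members, and Trib3, Sdf2l1 and Asns vary most within groups (residual SD 0.71, 0.50 and 0.46).

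The 3 translocon members did not pass the test. Sec61a1, which forms the channel, averaged 10.20 ± 0.33 (SD) in vehicle, 10.18 at 0.1 mg/kg, 9.99 at 15 mg/kg and 10.14 at 50 mg/kg. Sec63, its cochaperone, changed by -0.19 at 15 mg/kg (adjusted p = 0.401) and by -0.01 at 50 mg/kg. Ssr1, a subunit of the translocon associated complex, changed by -0.10 at 15 mg/kg and 0.10 at 50 mg/kg. Without vehicle replicate 4 Sec61a1 at 50 mg/kg turned from -0.06 to 0.07 and at 15 mg/kg went from -0.21 to -0.08. Ssr1 then changed by -0.04 at 15 mg/kg and 0.16 at 50 mg/kg. The direct difference of Ssr1 between the upper doses was 0.19 (unadjusted p = 0.0306, adjusted p = 0.858).

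The sensors and factors showed no called change. Xbp1 had vehicle values of 11.53, 11.64, 11.78, 11.85 and 12.01. They were 11.73, 11.67, 11.80, 11.77 and 11.80 at 0.1 mg/kg, and 11.71, 11.98, 11.77, 11.90 and 11.78 at 15 mg/kg. With 50 mg/kg the values were 11.95, 11.68, 12.01, 11.65 and 12.07, so the groups overlapped throughout. The change was 0.11 at 50 mg/kg, with a 95% interval from -0.08 to 0.30 (adjusted p = 0.679), 0.07 at 15 mg/kg and -0.01 at 0.1 mg/kg. With single arrays left out the change at 50 mg/kg ran from 0.05 to 0.17. The probe set reads the transcript as a whole, and the spliced form was not measured. Eif2ak3, which encodes PERK, changed by -0.02 at 50 mg/kg, and Atf6 by -0.06 (adjusted p = 0.937 and 0.801). Without vehicle replicate 4 Atf6 changed by -0.03. A second, dimmer Atf6 probe set (mean 5.58) had the opposite sign at 50 mg/kg, with a change of 0.18 (adjusted p = 0.368).

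Atf4, the factor translated when PERK or other kinases phosphorylate eIF2α, had vehicle values of 10.87, 10.98, 11.04, 11.23 and 10.94. They were 10.88, 11.01, 10.95, 11.17 and 11.16 at 0.1 mg/kg, and 11.03, 11.08, 11.30, 10.78 and 10.90 at 15 mg/kg. In the highest dose group they were 10.83, 10.95, 11.35, 10.72 and 11.20, spread to both sides of vehicle. The group means were 11.01, 11.03, 11.01 and 11.01, and the 95% interval at 50 mg/kg ran from -0.24 to 0.24.

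Ddit3 encodes CHOP, the factor tied to cell death under lasting ER stress. Its vehicle values were 6.78, 7.19, 6.88, 7.60 and 7.44. They were 7.15, 7.50, 7.10, 7.21 and 6.94 at 0.1 mg/kg, and 7.40, 7.19, 7.54, 6.87 and 7.20 at 15 mg/kg. The 50 mg/kg arrays had 6.60, 6.71, 7.62, 6.80 and 7.41, which held both the highest and the lowest array of the series. The change was -0.15 at 50 mg/kg (95% interval -0.55 to 0.25, adjusted p = 0.811), 0.06 at 15 mg/kg and 0.00 at 0.1 mg/kg. With single arrays left out the change at 50 mg/kg ran from -0.30 to -0.04, and without vehicle replicate 4 the 3 changes were -0.04, 0.17 and 0.11.

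Asns, the asparagine synthetase gene raised by ATF4, had vehicle values of 9.48, 8.97, 9.60, 9.62 and 8.70. They were 8.59, 9.23, 9.89, 9.04 and 9.63 at 0.1 mg/kg, and 9.27, 9.77, 9.52, 8.66 and 8.80 at 15 mg/kg. With 50 mg/kg the values were 8.82, 9.22, 9.64, 8.77 and 8.57. The groups overlapped throughout. The change was -0.27 at 50 mg/kg (95% interval -0.82 to 0.27, adjusted p = 0.727), and from -0.43 to -0.16 with single arrays left out. Trib3, a pseudokinase induced by ATF4 and CHOP, had the largest positive changes of all members, 0.60 at 50 mg/kg, 0.59 at 15 mg/kg and 0.49 at 0.1 mg/kg, and was not called (adjusted p = 0.572, 0.575 and 0.857). Without vehicle replicate 4 these were 0.86, 0.85 and 0.75. Its vehicle values ran from 7.47 to 9.18 and its residual SD, 0.71, was the largest of the 33.

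Some members varied together between arrays of the same dose. Over the deviations of the 20 arrays from their dose group means, Atf4 and Trib3 correlated with r = 0.86 and rho = 0.87 (permutation test, adjusted p = 0.00018 and 0.00012 over the 12 pairs computed). Without the 2 arrays farthest from the median of Atf4, r was 0.79, and with the leading digit removed it was 0.86. Trib3 and Asns gave r = 0.70 and rho = 0.67 (permutation adjusted p = 0.0015 and 0.0035), 0.62 without the 2 farthest arrays and 0.73 with the digit removed. Atf4 and Asns gave a lower r = 0.51 and rho = 0.50 (permutation adjusted p = 0.031 and 0.042), and 0.36 without the 2 farthest arrays. Ddit3 correlated with Atf4 at r = 0.71 and rho = 0.68 (permutation adjusted p = 0.0015 and 0.0035), and at 0.59 without the 2 farthest arrays. With Trib3, Ddit3 gave r = 0.51 and rho = 0.49 (permutation adjusted p = 0.031 and 0.044), and 0.26 without the 2 farthest arrays. Ddit3 and Asns gave r = 0.10 and rho = 0.02 (permutation adjusted p = 0.73 and 0.93). Among the folding genes Creld2 correlated with Hyou1 (r = 0.74, rho = 0.76, permutation adjusted p = 0.00044 and 0.00056) and with Manf (r = 0.80, rho = 0.81, permutation adjusted p = 0.00018 and 0.00024). Without the 2 farthest arrays these were 0.73 and 0.72, without vehicle replicate 4 they were 0.72 and 0.81, and with the digit removed 0.75 and 0.73. Sdf2l1 did not follow them in the same way: r was 0.24 with Creld2 (0.01 without vehicle replicate 4), -0.02 with Manf, and 0.56 with Hyou1, the last falling to 0.14 without the 2 farthest arrays (permutation adjusted p = 0.38, 0.94 and 0.022). Hyou1 and Manf gave r = 0.54 (permutation adjusted p = 0.026). Each point of a pair comes from the same array. The permutation exchanged deviations across dose groups. Centring on the group means leaves fewer free values than 20 arrays, so these permutation p-values may be too small. How often other gene pairs correlate as strongly was not tested.

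**Figure D4:**
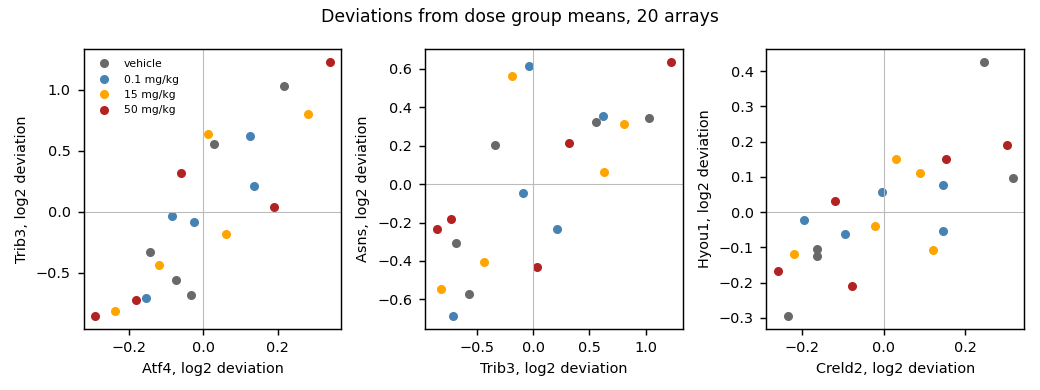
Deviation of each of the 20 arrays from its dose group mean, in log2 units, for Trib3 against Atf4 (r = 0.86), Asns against Trib3 (r = 0.70) and Hyou1 against Creld2 (r = 0.74); colours give the dose group. Points of every dose group run along the same direction in the left panel, and the topmost point of the right panel is a vehicle array.

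Over all 33 members the median change was -0.08 at 50 mg/kg, -0.13 at 15 mg/kg and -0.08 at 0.1 mg/kg, with negative values for 25, 27 and 26 of them. An unadjusted p under 0.05 was found for 7, 11 and 8 members, or 21.2%, 33.3% and 24.2%, where the share over all probe sets was 13%, 12.1% and 6.87%. Without vehicle replicate 4 the medians were -0.04, -0.11 and -0.01, and 23, 25 and 19 members were negative. The arrays at 50 mg/kg lay wholly below vehicle for 2 members and wholly above for 1, Vcp, where 2.96% of all probe sets did not overlap, 1.18% below and 1.78% above. At 15 mg/kg 2 members lay wholly below and none above, where 2.32% of all probe sets did not overlap (0.754% below, 1.57% above). At 0.1 mg/kg 1 member lay wholly below and none above, where 1.24% did not overlap (0.474% below, 0.763% above). The 7 members with the ER stress response element had a median change of -0.10, -0.16 and -0.09 at 50, 15 and 0.1 mg/kg, and the 20 members without it in the promoter table -0.08, -0.11 and -0.03. Without vehicle replicate 4 these were -0.04, -0.12 and -0.06 with the element and -0.04, -0.11 and 0.00 without it. A further 18 probe sets of 11 members gave no call in 54 tests against vehicle; 8 of these had an unadjusted p under 0.05 and the lowest adjusted p, for Edem1, was 0.28.

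Of the 8 measured genes of the 10 on the Kupffer cell list 4 fell at 50 mg/kg (0.348% of all probe sets fell), and all 8 had negative changes. The list mean ran from 9.57 to 9.76 in vehicle, 9.29 to 9.76 at 0.1 mg/kg, 9.39 to 9.68 at 15 mg/kg and 8.97 to 9.38 at 50 mg/kg. The mean of the 4 measured of 6 neutrophil genes ran from 10.95 to 12.35 in vehicle, 11.31 to 11.59 at 0.1 mg/kg, 10.50 to 11.69 at 15 mg/kg and 9.86 to 11.45 at 50 mg/kg, highest on vehicle replicate 4, and none of the 4 was called. The 3′ to 5′ difference of beta-actin, a measure of RNA integrity, was 2.11 ± 0.24 (SD) at 50 mg/kg and 1.88 ± 0.34 in vehicle. With it as a covariate Selenok alone stayed called at 50 mg/kg. The part of these cells in the changes of the ER genes was not tested. With the arrays carrying muscle or pancreas transcripts left out, 4, 1, 3 and 2 arrays remained in the 4 groups and no member was called. Selenok then changed by -0.24 at 50 mg/kg (adjusted p = 0.634) and Syvn1 by -0.19 (adjusted p = 0.715).

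The other ER functions were read through lists of related genes. The membrane electron transfer list holds Por, Cyb5a, Cyb5b, Cyb5r3, Pgrmc1 and Pgrmc2, and 2 of its 6 genes rose at 50 mg/kg. Over all probe sets 0.586% were called higher and 0.348% lower at this dose. These lists too were chosen with earlier results of these data known. Por, the oxidoreductase that passes electrons to cytochrome P450 enzymes, had values of 10.03, 9.80, 9.91, 10.08 and 10.19 at 50 mg/kg. In vehicle they were 10.05, 8.95, 8.88, 9.06 and 8.99, with replicate 1 as high as the dosed arrays. The change was 0.82 ± 0.16 (SE, adjusted p = 0.0186), 0.56 at 15 mg/kg (adjusted p = 0.201) and -0.32 at 0.1 mg/kg. Without vehicle replicate 1 the change at 15 mg/kg was 0.78 and was called (adjusted p = 0.000443, in a range from 0.000443 to 0.553 over the alternatives). Its call at 50 mg/kg was lost in 5 omissions: vehicle replicates 2 (0.05), 3 (0.052) and 4 (0.0544), and the 50 mg/kg replicates 4 (0.0572) and 5 (0.0532). The Por call was also lost with the mean of all its probe sets (0.68, adjusted p = 0.0584) and with only the groups compared (adjusted p = 0.124). Without the muscle and pancreas arrays the Por change was 0.75. Cyb5a, cytochrome b5, had 13.31, 13.24, 13.31, 13.34 and 13.30 at 50 mg/kg against 13.00, 13.02, 12.86, 12.93 and 13.16 in vehicle. The dosed arrays were all higher, by 0.30 ± 0.06 (SE, adjusted p = 0.0095). That call was lost with only the groups compared (adjusted p = 0.0997) and without the muscle and pancreas arrays (0.28, adjusted p = 0.612).

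Phosphatidylserine synthase 2, Ptdss2, was the 1 gene of 15 in phospholipid synthesis that rose at 50 mg/kg (0.586% of all probe sets rose). Its values were 8.39, 8.20, 8.49, 8.50 and 8.48 at 50 mg/kg and 8.18, 7.86, 7.86, 7.96 and 7.68 in vehicle, without overlap, a change of 0.51 ± 0.08 (SE, adjusted p = 0.00254). The call was lost with the mean of all its probe sets (0.34, adjusted p = 0.0527), with only the groups compared (adjusted p = 0.0601) and without the muscle and pancreas arrays (0.42, adjusted p = 0.586). At 15 mg/kg its change of 0.36 was not called (adjusted p = 0.0957), but was without vehicle replicate 1 (0.43, adjusted p = 0.023, in a range from 0.023 to 0.546). Sar1b, the GTPase that starts COPII vesicles, was the 1 of 14 measured genes of ER to Golgi transport that rose at 50 mg/kg, against the same 0.586%. It had 11.45, 10.93, 11.27, 11.20 and 11.10 at 50 mg/kg against 10.99, 10.68, 10.65, 10.71 and 10.70, an overlap through vehicle replicate 1, and a change of 0.44 ± 0.09 (SE, adjusted p = 0.0201). Omitting vehicle replicate 2 (0.0506), 3 (0.0537) or 4 (0.0544) ended that call, as did omitting the 50 mg/kg replicate 3 (0.0522) or 4 (0.0572). It was also lost with the muscle, pancreas and erythroid covariates (adjusted p = 0.0512) and with only the groups compared (adjusted p = 0.107). Without the muscle and pancreas arrays the Sar1b change was 0.26.

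Among the 20 other luminal folding genes Qsox1, a sulphydryl oxidase that forms disulphides in secreted proteins, fell at 50 mg/kg (0.348% of all probe sets fell). It had 8.90, 9.19, 9.61, 9.24 and 9.47 there and 10.10, 10.48, 9.94, 10.69 and 10.30 in vehicle, without overlap. The change of -1.02 ± 0.20 (SE, adjusted p = 0.018) was the lowest in any of the ER lists, and it was not called when vehicle replicate 4 was omitted (-0.92, adjusted p = 0.0573), nor when the 50 mg/kg replicate 4 was (-1.01, adjusted p = 0.053). Without the muscle and pancreas arrays the Qsox1 change was -0.93. Of the 13 measured cytosolic and mitochondrial chaperones Hspd1, the mitochondrial HSP60, rose by 0.26 ± 0.06 (SE, adjusted p = 0.037), where 0.586% of all probe sets rose. Its values were 12.86, 12.88, 12.88, 12.89 and 12.92 at 50 mg/kg and 12.74, 12.60, 12.64, 12.43 and 12.70 in vehicle. The Hspd1 call was lost without vehicle replicate 2, 3 or 4 or without any single array of the 50 mg/kg group (adjusted p from 0.0582 to 0.0971). It was also lost with the digit block (adjusted p = 0.0554), the replicate block (0.075) and only the groups compared (0.156). The same held with the muscle, pancreas and erythroid covariates (0.081) and the beta-actin covariate (0.071).

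No gene was called at 50 mg/kg in the remaining lists: 20 of translocation and signal peptidase, 15 of N-glycosylation, 19 measured of other ERAD, 25 of other stress signalling, and 12 of ER shape and ER-phagy. Their smallest p belonged to Srp14 of the signal recognition particle (0.22, adjusted p = 0.0966), the glucosidase Mogs (-0.17, adjusted p = 0.368), the ubiquitin ligase Rnf5 (-0.23, adjusted p = 0.112), the stress factor Atf3 (0.56, adjusted p = 0.0971) and the ER fusion GTPase Atl2 (0.34, adjusted p = 0.15). No gene of any of the 10 lists was called at 15 or 0.1 mg/kg. The median changes at 50 mg/kg ran from -0.063 in other luminal folding to 0.225 in electron transfer, where the median over all probe sets was 0.009.

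**Figure D5:**
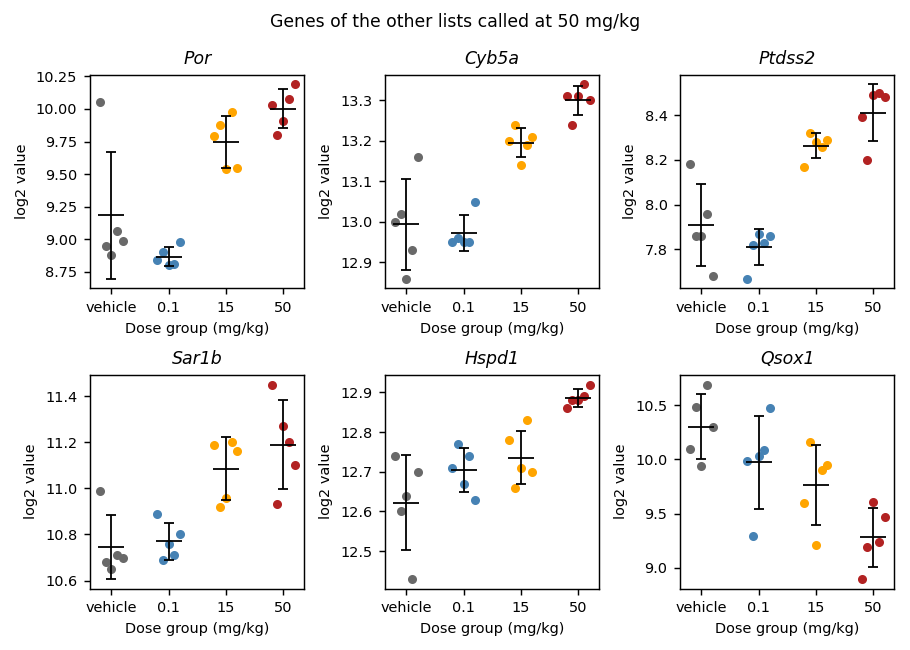
Deposited log2 values of Por, Cyb5a, Ptdss2, Sar1b, Hspd1 and Qsox1 on each array (points) by dose group in mg/kg, with the group mean and SD (bars; n = 5). At 50 mg/kg Cyb5a, Ptdss2 and Hspd1 lie above and Qsox1 below all 5 vehicle arrays, while for Por and Sar1b vehicle replicate 1, at 10.05 and 10.99, reaches into the dosed range.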

How the data were processed

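Liver RNA was hybridised to 20 Rat230_2 arrays, 5 in each dose group. The deposited series matrix holds log2 values per probe set, made by the authors with RMA per the submitters' processing notes; which version was used and whether all arrays entered jointly are not stated there. The RMA quantile step, if joint, would remove any change shared by most probe sets. Column medians ran from 5.605 to 5.648.

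After 57 control probe sets were removed, 1 limma 3.58.1 model (R 4.3.3) with 4 group means was fitted to all 31042 probe sets. Each dose was set against vehicle, 50 against 15 mg/kg, and a slope was taken over the dose order. P-values were adjusted by Benjamini-Hochberg over all probe sets of a contrast, and a call is an adjusted p under 0.05. The model was tested on simulated data, in which 50 probe sets per effect size were altered at 50 mg/kg. Recovery was 28% at a log2 size of 0.3 and 64% at 0.5. It rose to 98% at a size of 1 and 100% at 2, with 10 false calls. A missing call is thus weak evidence that a gene did not shift by 0.3 to 0.5. Of the probe sets, 20826 carry 1 symbol, 436 several and 9780 none; names come from GEO's platform annotation.

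Genes given in full are members called in any contrast, the 4 smallest p at each dose, and Hspa5, Ddit3, Atf4, Xbp1, Selenok and Asns; from each related list, all called genes or else the smallest p at 50 mg/kg. Members and lists were chosen with earlier results of these data known. Some other members are named with their values, and this choice was made after those values were seen. The pancreas, muscle, erythroid, plasma cell, endothelial, stellate and neutrophil marker lists were measured in the same way. At 50 mg/kg no gene of the erythroid (7 measured), endothelial (5), stellate and fibroblast (7), skeletal muscle (11), exocrine pancreas (13), hepatocyte (7) or plasma and B cell (4) lists was called. Alternatives covered normalisation, filters, blocks, covariates, array weights, variance shrinkage, the probe set rule and single arrays left out. Titles share replicate numbers across groups; of 30 same-number correlations of deviations 9 were over 0.1 (range -0.36 to 0.29), so the numbers were not used to pair arrays. The number of arrays limits the precision.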

Additional observations from a re-analysis of the deposited data

Results flagged for a closer look

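Of 132 sets of 5 arrays (33 members in 4 groups) 10 held an array whose gap to its nearest neighbour took up more than 0.71 of the range of its group (7.58%); chance alone marks about 1 in 20. In vehicle these were Calr on replicate 4 (12.01, others 11.29 to 11.47) and Edem1 on replicate 1 (12.09, others 10.90 to 11.20). At 0.1 mg/kg they were Vcp on replicate 5 (10.96, others 11.09 to 11.14), Ube2j1 on replicate 3 (7.80, others 7.46 to 7.51) and Ssr1 on replicate 2 (10.54, others 10.39 to 10.43). At 15 mg/kg they were P4hb on replicate 4 (13.13, others 13.00 to 13.03) and Syvn1 on replicate 5 (9.0, others 8.82 to 8.85). At 50 mg/kg they were Pdia4 on replicate 3 (11.31, others 11.59 to 11.69), Vcp on replicate 2 (11.18, others 11.34 to 11.38) and Eif2ak3 on replicate 2 (7.85, others 7.54 to 7.59). The high Syvn1 array at 15 mg/kg and the low Vcp array at 50 mg/kg both lay toward the vehicle values of their gene.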

How the results depend on the processing

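The main fit called 2 members at 50 mg/kg, 1 at 15 mg/kg and 3 over the dose order. At 50 mg/kg 1 member was called with the leading digit as block, after a second quantile normalisation or with the beta-actin difference as a covariate, and 0 with only the groups compared or without the arrays carrying muscle or pancreas transcripts. With single arrays left out the count ran from 0 to 3. At 15 mg/kg the count was 0 with the replicate block, the digit block, only the groups compared, the second quantile normalisation, equal array medians, the muscle, pancreas and erythroid covariates or the muscle and pancreas arrays left out, and 0 to 1 with single arrays left out. Over the dose order it was 0 without the muscle and pancreas arrays, 1 with the beta-actin covariate, and 1 to 3 with single arrays left out. No member was called at 0.1 mg/kg or at 50 against 15 mg/kg under any alternative tried. The median change of the members stayed negative under all 32 alternatives, from -0.11 to -0.04 at 50 mg/kg, -0.17 to -0.09 at 15 mg/kg and -0.11 to -0.01 at 0.1 mg/kg.

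With the replicate block, which uses numbers that share only a name, 2 members stayed called at 50 mg/kg, 0 at 15 mg/kg (Selenok -0.28, adjusted p = 0.0793) and 2 over the dose order; Hspd1 lost its call at 50 mg/kg (adjusted p = 0.075), and the block changed no other call of a named gene at a single dose.

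Values near 0 changed sign, none of them called. Xbp1 at 0.1 mg/kg was 0.01 with the digit block and 0.03 with the tissue covariates (-0.07 to 0.06 with single arrays left out). Atf4 at 0.1 mg/kg was -0.07 without the muscle and pancreas arrays (-0.01 to 0.08). Ddit3 at 15 mg/kg was -0.02 without those arrays and -0.05 with the covariates (-0.04 to 0.17). Asns at 15 mg/kg was 0.02 with the digit block and 0.18 with the covariates (-0.21 to 0.07). Vcp at 0.1 mg/kg ran from -0.03 to 0.01. For genes of the other lists, to which the alternatives were applied after their values were seen, Mogs at 0.1 mg/kg was 0.01 after the second quantile normalisation (-0.06 to 0.01), Sar1b at 0.1 mg/kg -0.02 with the digit block (-0.01 to 0.08), and Cyb5a at 0.1 mg/kg ran from -0.06 to 0.02. The cause was not tested. Over all probe sets the 290 calls at 50 mg/kg became 89 with only the groups compared, 193 with the beta-actin covariate, 3 without the muscle and pancreas arrays and 106 to 276 with single arrays left out. The 36 at 15 mg/kg became 11, 19 with the tissue covariates, 3 without those arrays and 14 to 44. The 449 over the dose order became 5 without those arrays and 232 to 487. Fewer arrays remain where arrays are left out, and weak signals such as that of Atf3, near 4.45 in vehicle, are the least certain.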
